A study of Mus musculus with 4 samples.

Results

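A set of 10 genes that mark the alveolar macrophage, of the 31053 genes listed for each library, were followed across the immune cells of the mouse lung. They were taken by symbol: Pparg, Csf2ra, Marco, Siglecf, Car4, Krt79, Fabp4, Fabp5, Ear1 and Ear2. The cells came from C57BL/6 mice that all carried floxed Ift20 alleles. WT animals were Ift20 f/f, and KO animals were Ift20 f/f CD4 cre, in which Cre is driven by the Cd4 promoter and acts in developing T cells, CD8 T cells included, so the macrophages of KO mice keep the gene. The animals were males aged 5 to 10 weeks. Mice received 25 µg of papain, a plant protease used as an allergen, through the nose on 3 consecutive days, were challenged again on day 14, and lungs were taken on day 15. DPBS, a phosphate-buffered saline, was the control given in place of papain. Live cells positive for CD45.2, the leukocyte surface marker, were sorted, and each group (DPBS WT, DPBS KO, Papain WT, Papain KO) gave 1 library of the 10x Genomics 3′ kind. The number of mice behind a library is not given, and with 1 library a group no difference between groups could be tested.

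Alveolar macrophages live in the air spaces, where they clear surfactant lipid and inhaled particles. They settle there around birth under GM-CSF, a cytokine whose receptor holds the alpha chain encoded by Csf2ra, and GM-CSF induces PPAR gamma, the lipid-sensing nuclear receptor encoded by Pparg that directs their differentiation. Marco is a scavenger receptor for inhaled particles and bacteria, and Siglecf is a sialic acid-binding surface receptor also carried by eosinophils. Fabp4 and Fabp5 are cytoplasmic fatty acid carriers, Fabp4 being a classical PPAR gamma target. Car4 is a membrane-bound carbonic anhydrase, Krt79 is a keratin, and Ear1 and Ear2 are eosinophil-associated ribonucleases of the RNase A superfamily.

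Ear1 and Ear2 are near copies of each other, which bears on how their counts can be read. On GRCm38 both lie on chromosome 14, Ear1 at 43818765 to 43875517 on the minus strand and Ear2 at 44102654 to 44103534 on the plus strand, with 227137 bases between them. The annotated Ear1 span also overlaps Ear-ps12 and Ear-ps9 on the same strand. Their promoter windows, 250 bases before to 50 after the start in RefSeq on GRCm38.p6, were at chr14:43819590-43819889 on the minus strand and chr14:44102404-44102703 on the plus strand. The Ear1 window lies inside the annotated span given above, so the 2 annotations place the start of Ear1 differently. The distance of 227137 bases was taken between the annotated spans. The windows are shown because the levels of these 2 genes differed outside the alveolar macrophage. The capitals mark the bases that differ between the aligned stretches, with 3 substitutions and 1 gap base over 298 aligned bases, an identity of 98.7%.

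Ear1: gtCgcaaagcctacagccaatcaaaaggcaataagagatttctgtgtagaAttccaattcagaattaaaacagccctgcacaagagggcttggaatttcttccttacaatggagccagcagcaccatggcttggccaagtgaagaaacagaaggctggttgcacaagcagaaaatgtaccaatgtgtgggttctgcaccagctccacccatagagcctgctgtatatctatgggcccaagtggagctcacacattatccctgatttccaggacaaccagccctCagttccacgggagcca
Ear2: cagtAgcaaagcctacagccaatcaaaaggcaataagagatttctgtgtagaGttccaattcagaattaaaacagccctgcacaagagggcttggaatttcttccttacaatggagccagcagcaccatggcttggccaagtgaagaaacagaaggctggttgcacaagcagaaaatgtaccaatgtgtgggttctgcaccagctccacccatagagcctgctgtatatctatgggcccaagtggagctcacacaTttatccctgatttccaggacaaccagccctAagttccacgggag

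The last 500 bases of the 2 transcripts, the stretch that a 3′ library reads, differed by 17 substitutions and 3 gap bases. Of 411 windows of 90 bases in that stretch, 108 of Ear1 (26.3%) and 40 of Ear2 (9.73%) were also found in another gene of the Ear family, so a part of their counts is uncertain. The other 8 members shared no such window with another gene. Promoter windows were found for 8 of the 10 members, in 10 windows. The motif GAGGAA, the core bound by the macrophage factor PU.1, was present on either strand in 4 of the 10 windows, those of Csf2ra, Marco, Pparg and Siglecf, and in 28.3% of 32851 windows of the same length. TTGCNNAA, a pattern bound by C/EBP factors, was present in windows of Ear1, Ear2 and Pparg and in 10.8% of all windows. CACGTG, TTCNNNGAA and the direct repeat bound by PPAR gamma and RXR were found in none of the members' windows and in 7.15%, 8.30% and 0.0396% of all windows.

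Fabp4 and Fabp5 are neighbours on chromosome 3, with Fabp5 at 10012548 to 10016607 on the plus strand and Fabp4 at 10204088 to 10208576 on the minus strand, 187481 bases apart. The remaining members lie singly. Marco is on chromosome 1 from 120474538 to 120505024 (minus strand), Pparg on chromosome 6 from 115360951 to 115490399 (plus), Siglecf on chromosome 7 from 43351341 to 43359531 (plus), Car4 on chromosome 11 from 84957786 to 84966044 (plus), Krt79 on chromosome 15 from 101929332 to 101940324 (minus) and Csf2ra on chromosome 19 from 61223957 to 61228429 (minus).

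After filtering, 5430 to 7573 cells per library were kept, with a median of 5817 to 6680 UMIs (unique molecular identifiers, counted molecules) per cell. Between 7 and 16 cell barcodes were shared by any pair of libraries. Cells were clustered without the members and their relatives, and classes were named from other markers. In T-like cells Ift20 stood at 53.0 and 50.5 CPM (UMIs of the gene in every 1000000 UMIs that the class holds) in DPBS WT and Papain WT and at 21.5 and 20.1 CPM in DPBS KO and Papain KO. In alveolar macrophage-like cells, which the Cre driver does not target, Ift20 was between 55.5 and 64.0 CPM in all 4 libraries. The 4 libraries are given throughout in that order of groups, DPBS before papain and WT before KO, and all levels are summed over the cells of a class in this unit. The 95% intervals are exact and cover counting error only.

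Of the 27 clusters, 3, here called alveolar macrophage-like, held 1427, 1225, 954 and 539 cells, or 18.8%, 22.6%, 12.8% and 9.91% of the cells kept. All 10 naming markers, among them Chil3, Mrc1, Itgax and Plet1, were present in 71.7% to 100% of these cells, in each library. Their median depth was 16780 to 19616 UMIs, against 4442 to 5363 in T- and B-like cells, which served as the measure of free RNA. Interstitial macrophage-like cells numbered 51, 64, 258 and 80, classical monocyte-like cells 274 to 443, nonclassical monocyte-like cells 280 to 443, and neutrophil-like cells 121, 109, 347 and 232 with a median of 2962 to 3325 UMIs. No cluster could be named eosinophil- or basophil-like, so of the granulocytes only neutrophils were described. Cells past an eosinophil gate on transcripts numbered 1, 2, 6 and 3, and they fell in plasma cell- and B-like clusters.

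The 10 genes together marked the alveolar macrophage-like class, and some of them were found beyond it. All 10 were at least 5 times above the lymphocyte level in all 4 libraries in alveolar macrophage-like cells, against 10.5% of 7906 genes. Classical monocyte-like and nonclassical monocyte-like cells each held 4 of the 10 by this measure, Csf2ra, Ear2, Fabp4 and Pparg, against 6.91% and 7.16% of genes. Interstitial macrophage-like cells held Csf2ra, Ear2, Fabp5 and Pparg, where 7.4% of genes passed. Neutrophil-like cells held 2, Csf2ra and Siglecf, where 6.25% passed. Among the 11 named classes with at least 20 cells in every library, alveolar macrophage-like cells had the highest mean level over libraries for 8 members, the exceptions being Fabp4 and Csf2ra.

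Pparg, the nuclear receptor, was shared with nonclassical monocyte-like cells. It stood at 181, 174, 158 and 189 CPM in alveolar macrophage-like cells and at 157, 159, 153.5 and 153 CPM in nonclassical monocyte-like cells, so that the ranges of the 2 classes met. Classical monocyte-like cells held 39.3, 29.1, 20.03 and 42.4 CPM. Type 2 innate lymphoid cells, the ILC2 that make type 2 cytokines, carried Pparg too, at 81.4, 67.6, 97.0 and 77.9 CPM. These levels compare with 0.702 to 1.69 CPM in T- and B-like cells, and neutrophil-like cells held only 2 or 3 Pparg UMIs per library. Of all Pparg UMIs, 89.0%, 87.7%, 73.7% and 75.4% lay in alveolar macrophage-like cells.

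Csf2ra, the GM-CSF receptor alpha chain, was the least particular of the 10. Its level was 371, 339, 320.5 and 359.6 CPM in alveolar macrophage-like cells and 469, 522, 434 and 545 CPM in neutrophil-like cells, higher in neutrophils in every library. Nonclassical monocyte-like cells were at 442 to 479 CPM and classical monocyte-like cells at 366 to 468 CPM, also above the alveolar macrophage in each library. Interstitial macrophage-like cells followed at 354 to 423 CPM and both conventional dendritic classes at 218 to 341 CPM. Neighbouring myeloid classes overlapped in their ranges, and lymphocytes were at 10.5 to 11.9 CPM. Alveolar macrophage-like cells held 71.1%, 66.6%, 45.1% and 45.0% of all Csf2ra UMIs, beside 41.1%, 45.1%, 24.5% and 22.0% of the UMIs of all genes.

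The rest of the GM-CSF pathway was steady in alveolar macrophage-like cells. Of 8 genes listed, 7 reached the minimum level and none was past 1.5-fold in any of the 4 comparisons. The signalling beta chain Csf2rb stood at 530.1, 581, 520.4 and 532.5 CPM, and its relative Csf2rb2 at 69.6 to 80.3 CPM. Cish, a feedback inhibitor induced by STAT5, moved most within the list, with 30.6, 23.8, 44.6 and 31.3 CPM, lower in KO than in WT under both treatments. The ligand Csf2 was almost absent from the macrophages, at 0.184 to 0.994 CPM, and was found in ILC2-like cells at 264 to 678 CPM.

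Marco and Siglecf, a scavenger receptor and a sialic acid-binding receptor, had most of their UMIs in alveolar macrophage-like cells, and Siglecf was also found at a low level in neutrophils. Marco read 304, 224, 279 and 258 CPM there, against 0.501 to 1.27 CPM in lymphocytes and 0.457 to 2.95 CPM in the 2 monocyte classes. At least 97.9% of its UMIs lay in alveolar macrophage-like cells in each library. DPBS KO was the lowest of the 4 libraries. Siglecf read 187, 163.5, 120.1 and 143 CPM, with the 2 papain libraries below the 2 DPBS libraries. Neutrophil-like cells carried a low Siglecf level of 23.9, 20.3, 31.2 and 27.7 CPM from 11, 7, 37 and 24 UMIs, 16.2 to 55.2 times the lymphocyte level of the same library. Interstitial macrophage-like cells were at 3.88, 18.5, 15.3 and 6.52 CPM of Siglecf. Both monocyte classes were at 1.56 CPM or less, at the lymphocyte level.

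Car4 and Krt79, the carbonic anhydrase and the keratin, also lay mostly in the class. Car4 stood at 696, 582, 689 and 605 CPM, with the KO library below the WT library under each treatment. Krt79 stood at 597, 575.0, 551 and 646 CPM, and its order did not follow genotype or treatment. In lymphocytes, monocytes and neutrophils neither gene passed 8.68 CPM. Between 93.4% and 99.2% of Krt79 UMIs and between 95.6% and 99.1% of Car4 UMIs were in alveolar macrophage-like cells, in each library a smaller share than for Marco and Ear1.

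The interstitial macrophage-like class was mixed for these genes. Krt79 was at 3.88, 160.4, 172 and 13.04 CPM and Car4 at 3.88, 100.4, 134 and 16.7 CPM in that class, so that DPBS KO and Papain WT stood apart from the other 2 libraries. Cells with UMIs of at least 3 of Krt79, Car4, Ear1 and Marco numbered 1 of 51, 8 of 64, 26 of 258 and 1 of 80, and they held 87.8% of the Krt79 UMIs of the class in DPBS KO and 65.9% in Papain WT. Without them Krt79 was at 24.1 CPM in DPBS KO and 68.5 CPM in Papain WT. Whether they are cells of both characters or pairs of cells was not tested.

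The 2 fatty acid carriers differed in where they were found. Fabp4 was at 255, 320.7, 331 and 208 CPM in alveolar macrophage-like cells and higher, at 498, 515, 530.5 and 578 CPM, in nonclassical monocyte-like cells of every library. Classical monocyte-like cells held 84.6, 53.5, 31.8 and 102 CPM, the same order of libraries as Pparg had there, with Papain WT lowest and Papain KO highest. In that class the log2 ratio of Papain KO over Papain WT was 1.68 (1.41 to 1.95) for Fabp4 and 1.08 (0.71 to 1.45) for Pparg, while in nonclassical monocyte-like cells it was 0.12 (0.01 to 0.23) for Fabp4.

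Fabp5 was widespread. It read 642, 663, 1148 and 604 CPM in alveolar macrophage-like cells, 78.8, 218, 814 and 192 CPM in interstitial macrophage-like cells and 102, 81.2, 185 and 131 CPM in neutrophil-like cells. Papain WT was the highest library in all 3 classes. Lymphocytes held 13.02 to 19.8 CPM of Fabp5. T-like cells were at 19.3, 25.9, 22.1 and 19.4 CPM and B-like cells at 11.5, 13.5, 8.54 and 8.02 CPM, lower in every library. How much of these levels was free RNA was not tested. A cluster of 47 mature dendritic-like cells in Papain WT reached 3654 CPM, above the alveolar macrophage-like cells of that library. That class was too small elsewhere to be ranked.

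Ear1 and Ear2, whose promoter windows are printed above, separated outside the alveolar macrophage. Within it Ear1 stood at 895, 908, 646 and 878 CPM, Papain WT being lowest, and Ear2 at 1862, 1966, 1806 and 2018 CPM. Nonclassical monocyte-like cells held 767, 643, 540.1 and 544 CPM of Ear2 but only 3.85, 5.23, 1.48 and 0.457 CPM of Ear1, at the lymphocyte level. Classical monocyte-like cells showed the same split, with 171 to 273 CPM of Ear2 and 0.919 to 3.23 CPM of Ear1. Interstitial macrophage-like cells held Ear2 at 399, 1052, 1436 and 254 CPM and Ear1 at 7.75, 108, 41.7 and 18.8 CPM. Ear1 there was 27.9 and 24.4 times the lymphocyte level in DPBS KO and Papain WT, the libraries that also stood apart for Krt79 and Car4. How much of the Ear2 level of that class lay in its mixed cells was not tested. The Ear2 share of UMIs in alveolar macrophage-like cells was accordingly 93.3%, 92.9%, 78.8% and 88.3%, against 98.1% to 99.4% for Ear1.

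Shares of cells were compared at an equal depth of 1000 UMIs per cell. Ear2 was then seen in 71.1% to 78.9% of alveolar macrophage-like cells, Ear1 in 40.9% to 56.7%, Fabp5 in 34.7% to 47.9%, Krt79 in 34.5% to 42.9% and Car4 in 36.8% to 40.6%. Csf2ra was seen in 26.2% to 30.2%, Fabp4 in 16.0% to 22.6%, Pparg in 14.8% to 18.7%, Marco in 13.3% to 19.5% and Siglecf in 10.3% to 17.3%. Thinned lymphocytes showed at most 1.92% for any member, the highest being Fabp5. At full depth Marco was in only 48.4% to 56.9% of alveolar macrophage-like cells, and Ear2 in 95.2% to 99.4%.

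Genotype was compared first at rest, where the members differed little. None of the 10 was past 1.5-fold between DPBS KO and DPBS WT in alveolar macrophage-like cells, where 0.301% of 7635 genes were higher and 0.327% lower by that measure. The median log2 ratio of the members was -0.06, against 0.02 over all genes. Marco had the largest difference, a log2 ratio of -0.44 (-0.49 to -0.39), and Fabp4 the largest upward one, 0.33 (0.28 to 0.38). Car4 was at -0.26, and the remaining 7 members were between -0.19 and 0.08.

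After papain the 2 fatty acid carriers were lower in KO. Papain KO held 604 CPM of Fabp5 (589 to 619) against 1148 CPM (1131 to 1164) in Papain WT, 1.90-fold less, and 208 CPM of Fabp4 (199.6 to 217) against 331 CPM (322 to 339.7), 1.59-fold less. The log2 ratios were -0.93 (-0.97 to -0.89) and -0.67 (-0.74 to -0.60). These were 2 of 10 members, where 1.03% of genes were lower and 0.786% higher. None of the other 8 members was past 1.5-fold. Car4 (-0.19) and Marco (-0.11) were also lower in KO, while Ear1 was at 0.44 (0.40 to 0.48), Pparg at 0.26, Siglecf at 0.25 and Krt79 at 0.23. The median of the 10 was 0.16 against 0.07 over all genes. Fabp5 did not pass 1.5-fold in clusters built without integrating the libraries (-0.45) or without cells that held no UMI of Ear1 and Krt79 (-0.50), and Fabp4 did not pass without the cluster led by stress genes (-0.56). The Fabp5 difference rested on the high level of Papain WT, since the other 3 libraries lay between 604 and 663 CPM.

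Papain was compared with DPBS within each genotype, using the same 4 libraries, so these ratios are not independent of those above. In WT, Fabp5 was 1.79-fold higher with papain, a log2 ratio of 0.84 (0.81 to 0.87), where 1.7% of genes were higher. Siglecf was 1.56-fold lower, at 120.1 CPM (114.8 to 125.5) against 187 CPM (182 to 192), a log2 ratio of -0.64 (-0.71 to -0.56), where 1.34% of genes were lower. Ear1 was at -0.47 (-0.50 to -0.44) and Fabp4 at 0.37 (0.32 to 0.42), both short of 1.5-fold. The Fabp5 ratio fell short of 1.5-fold without integration (0.16), without the stress-led cluster (0.56) and without cells that held no UMI of Ear1 and Krt79 (0.28). Siglecf fell short without integration (-0.26), without those cells (-0.39) and without dividing cells (-0.58). Pparg, Marco, Car4, Krt79, Ear2 and Csf2ra were between -0.21 and -0.01. The median of the members was -0.12, and that of all genes -0.06.

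In KO, Fabp4 was the member past 1.5-fold with papain. It was 1.54-fold lower in Papain KO than in DPBS KO, a log2 ratio of -0.62 (-0.69 to -0.56), where 0.733% of genes were lower and 1.17% higher. This ratio lay close to the threshold and fell short of it without integration (-0.54), without the stress-led cluster (-0.51), without cells that held no UMI of Ear1 and Krt79 (-0.57) and at 1000 UMIs per cell (-0.55). Siglecf was at -0.20, Fabp5 at -0.14 and Marco at 0.20, and the other 6 members were between -0.05 and 0.17. Their median was 0.05, against -0.01 over all genes. Across the 4 comparisons, Pparg and Csf2ra, the receptor pair at the head of the programme, never passed 0.26 in either direction.

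**Figure D1:**
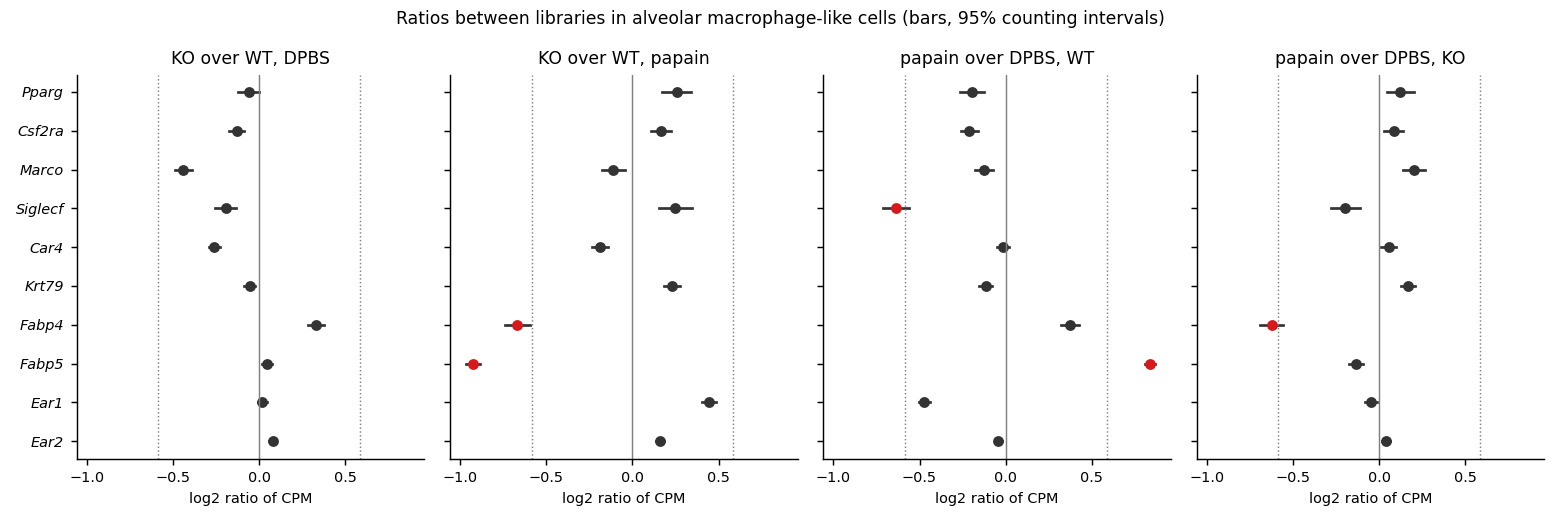
Log2 ratios of CPM in alveolar macrophage-like cells for the 10 genes in the 4 comparisons, with 95% counting intervals as bars. Fabp5 stands at 0.84 in papain over DPBS in WT and at -0.93 in KO over WT with papain, and Fabp4 at 0.37 with papain in WT and at -0.62 with papain in KO.

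The 3 alveolar macrophage-like clusters carried the members in different amounts. The largest, with 786, 774, 608 and 309 cells, was led by Gdf15, Gpnmb and Hmox1, genes of stress and lysosomal load. The next, with 471, 306, 278 and 195 cells, was led by Car4, Fabp1 and Ear1 though no member had been used to form it, and the smallest, with 170, 145, 68 and 35 cells, was led by division genes such as Mki67. Ear2 was highest in the second of these, at 2362, 2402, 2407 and 2442 CPM, and lowest in the dividing cells, at 1303, 1443, 1309 and 1327 CPM, with no overlap between libraries. Car4 was also highest there, at 800.1, 783, 971 and 835 CPM, against 680.1, 536, 587 and 508 CPM in the stress-led cluster. Car4 and Ear2 were among the leading genes of the second cluster, so these levels are not independent of its label.

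The papain differences were spread over the clusters unequally. Fabp5 in Papain WT was 1341 CPM in the stress-led cluster, 774 CPM in the Car4-led cluster and 834 CPM among dividing cells, in each case above the other 3 libraries. The log2 ratio of Papain KO over Papain WT for Fabp5 was -0.95, -0.72 and -0.64 in the 3 clusters. Siglecf in WT was at 115, 130.3 and 126 CPM with papain and at 180, 201 and 184 CPM with DPBS. Fabp4 in Papain KO was the lowest library in each cluster, at 212, 212 and 168 CPM. Marco in DPBS KO was lower than in DPBS WT most of all among dividing cells, 211 against 387 CPM, a log2 ratio of -0.88 from 788 and 1674 UMIs.

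**Figure D2:**
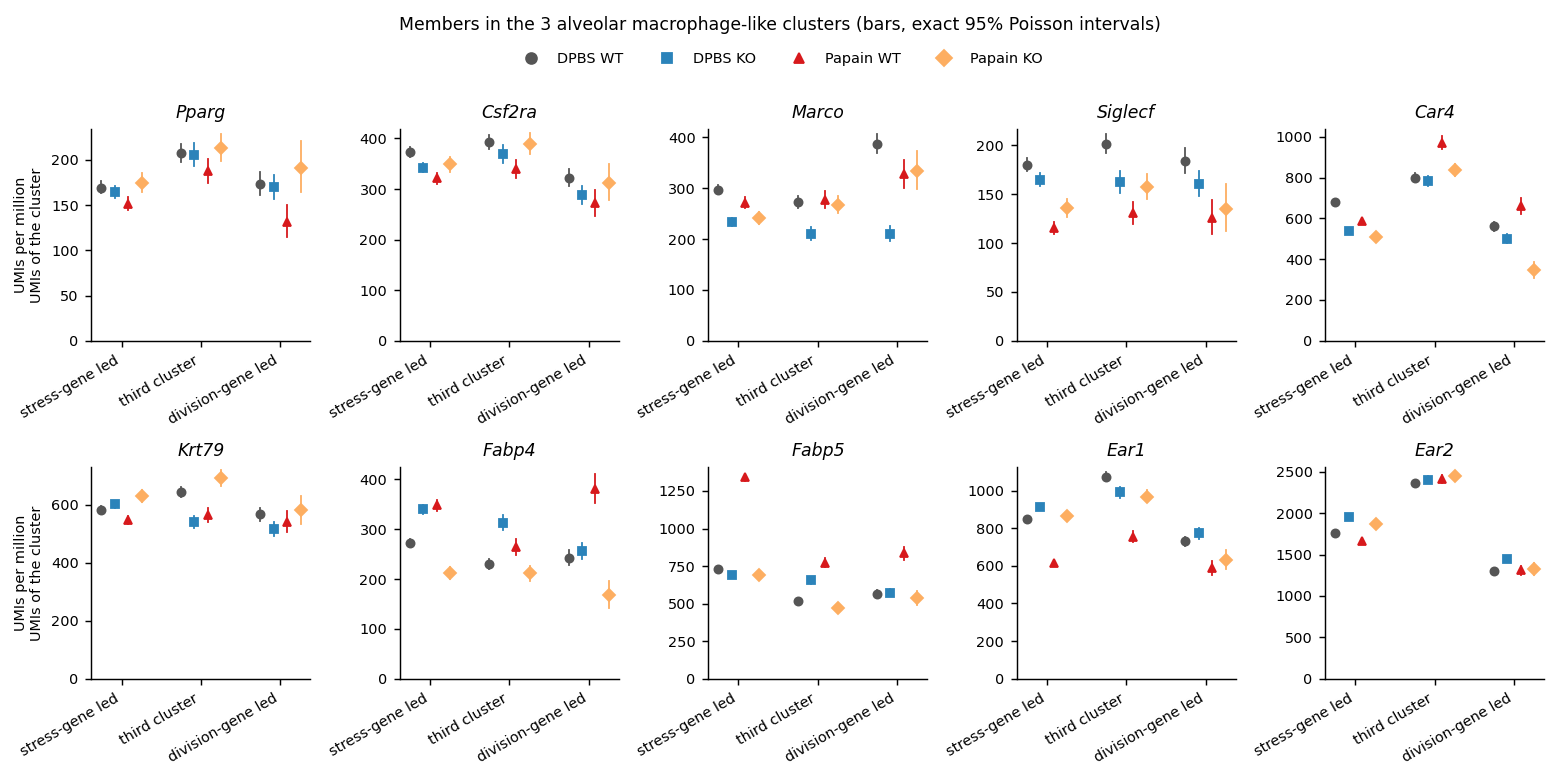
Level of each gene (UMIs per 1000000 UMIs of the cluster) in the 3 alveolar macrophage-like clusters, with 1 point per library and exact 95% Poisson intervals. Ear2 and Car4 are highest in the Car4-led cluster, marked as the third cluster, in all 4 libraries, and Fabp5 reaches 1341 CPM in the stress-led cluster of Papain WT.

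The variance over the mean across cells was read within the alveolar macrophage-like class. With each cell thinned to 5000 UMIs, it was 4.495 to 10.2 for Fabp5 and 4.92 to 5.42 for Marco. It was 3.96 to 5.15 for Ear2, 3.28 to 4.35 for Car4 and 3.06 to 4.14 for Fabp4. It was at most 1.33 for Csf2ra, 1.36 for Siglecf and 1.24 for Pparg, where 1 is the value of pure counting noise. This measure depends on the level of a gene, so members of unlike level cannot be ranked by it. Ear2 was seen in 93.8% to 98.7% of cells, at a median of 9 to 10 UMIs. A value near 1 in a gene of low level does not show that cells were alike. Cells with at least 10 Fabp5 UMIs made up 5.28%, 5.22%, 14.6% and 5.04% of the class, so the higher mean of Papain WT came with a larger share of high cells. Siglecf was seen in 58.2%, 53.4%, 41.8% and 46.6% of cells at this depth and Ear1 in 91.6%, 91.5%, 72.1% and 88.8%. Across cells of a library, Ear1 and Ear2 went together, with Spearman correlations of 0.43 to 0.49, and Fabp5 went against Ear2, with -0.36 to -0.13. These are descriptions over the 536 to 1402 cells of 1 library each.

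**Figure D3:**
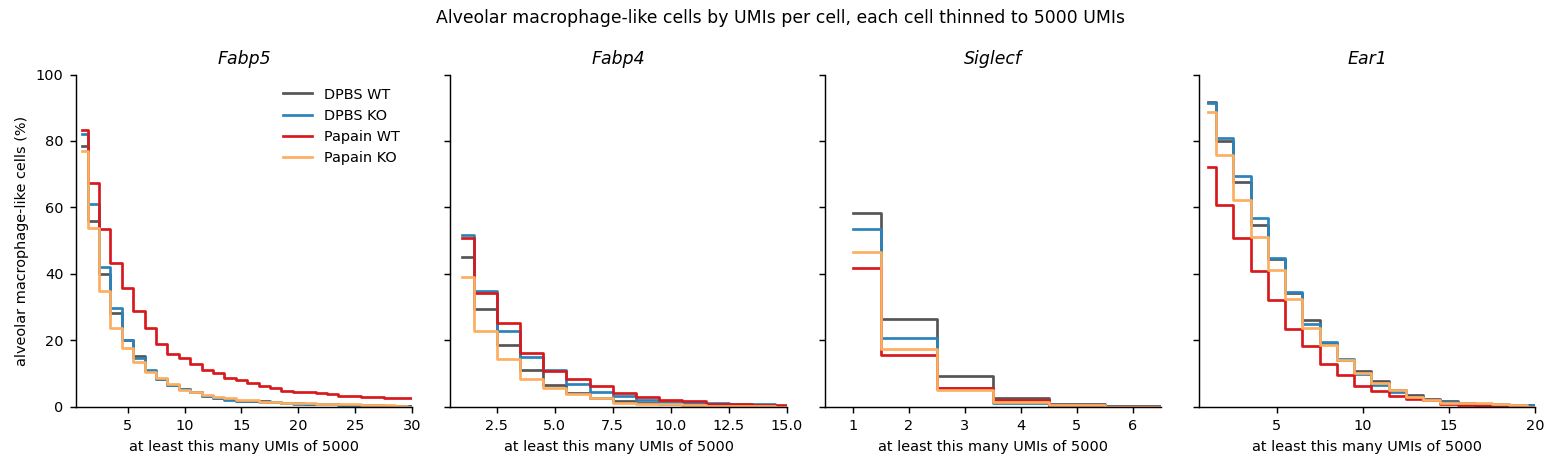
Share of alveolar macrophage-like cells (%) that hold at least the number of UMIs on the horizontal axis, each cell thinned to 5000 UMIs, for Fabp5, Fabp4, Siglecf and Ear1 in the 4 libraries. Papain WT has 14.6% of cells with 10 or more Fabp5 UMIs against 5.04% to 5.28% in the other libraries, and fewer cells with any Ear1 UMI.

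Papain WT held a set of alveolar macrophage-like cells in which most of these genes were low. Cells without a UMI of Ear1 and of Krt79, a choice made after the values were seen, were 37 of 1402 (2.64%, 1.86 to 3.62), 27 of 1149 (2.35%, 1.55 to 3.40), 155 of 876 (17.7%, 15.2 to 20.4) and 30 of 536 (5.60%, 3.81 to 7.89) cells of at least 5000 UMIs. Their median depth was 22051, 18558, 18755 and 20246 UMIs, and that of the other cells 18853, 19511, 17137 and 19608 UMIs. They were present in the stress-led and the Car4-led cluster, in 20.5% and 13.9% of cells, and in 4 of 67 dividing cells.

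In Papain WT these cells held Pparg and Csf2ra near the level of the others and less of the surface and enzyme genes. Pparg was at 134 CPM against 163 CPM in the other cells, and Csf2ra at 337 against 316.5 CPM. Marco stood at 29.7 against 326 CPM, Siglecf at 19.4 against 154 CPM, Car4 at 173 against 772 CPM and Ear2 at 1010.3 against 2164 CPM. Fabp5 went the other way, with 2631 against 685 CPM, a log2 ratio of 1.94 (1.86 to 2.03), while Fabp4 was at 228 against 355 CPM. The cells were chosen on Ear1 and Krt79, and some other members went with or against these genes across cells of Papain WT. Spearman correlations with Ear1 were 0.45 for Ear2, 0.33 for Siglecf and -0.35 for Fabp5, and that of Car4 with Krt79 was 0.30. The differences in these members are therefore not independent of the choice of cells. Of genes outside the set, named after their values were seen, Apoe was at 1542 against 65.7 CPM, Trem2 at 431 against 64.9 CPM and Fabp1 at 12.9 against 416 CPM. The 30 cells of Papain KO had 1533 against 499 CPM of Fabp5 and no Marco UMI.

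Markers of other classes were higher in these cells. Classical monocyte markers summed to 2237 CPM against 831 CPM in the other cells of Papain WT, and interstitial macrophage markers to 119 against 24.4 CPM, with Folr2 and Cd163 at 0. Over the whole class, all 8 classical monocyte markers were seen in each library and their sum was 533, 505, 1062 and 898 CPM, higher in both papain libraries, while the 8 interstitial macrophage markers summed to 34.6, 23.0, 38.4 and 22.8 CPM with Folr2 at 0 throughout. Their part in the results was not tested. Without the cells that lack Ear1 and Krt79, Fabp4 was the only member past 1.5-fold, and only in the comparison of KO with WT after papain, at a log2 ratio of -0.67. Clusters built without integrating the libraries held 1408, 1163, 648 and 503 cells in the class, against 1427, 1225, 954 and 539 with integration. The drop was by far the largest in Papain WT.

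**Figure D4:**
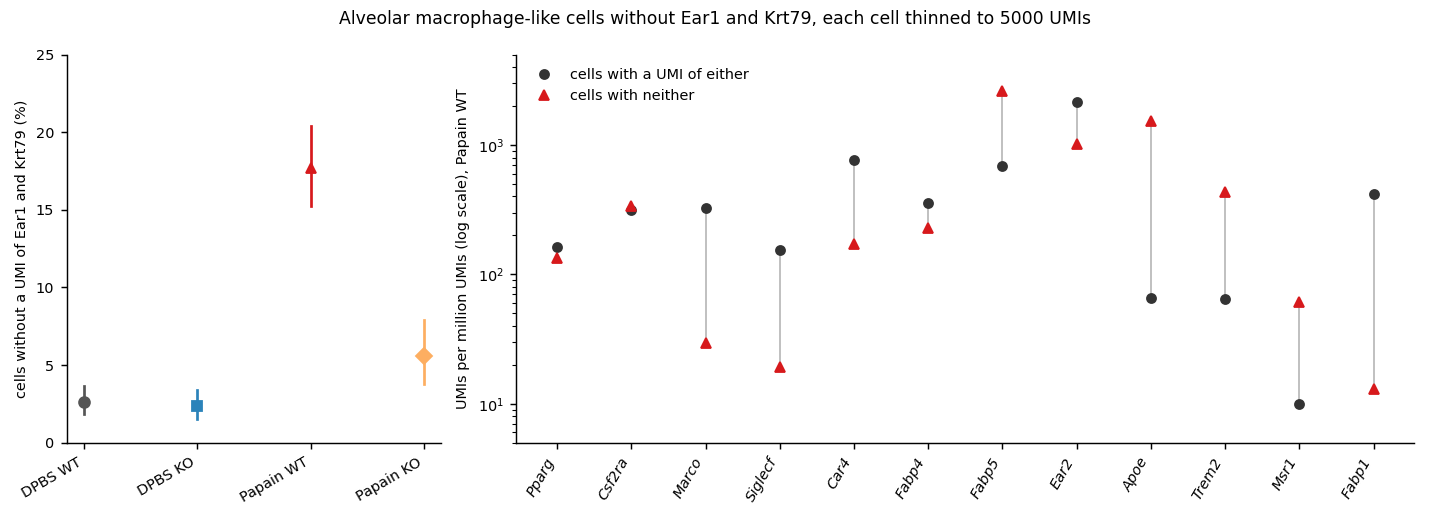
Left, share of alveolar macrophage-like cells (%) without a UMI of Ear1 and Krt79 at 5000 UMIs per cell in the 4 libraries, with exact 95% binomial intervals; right, level of other genes (UMIs per 1000000 UMIs, log scale) in Papain WT in those 155 cells and in the remaining 721. The share is 17.7% in Papain WT and 2.35% to 5.60% elsewhere, and Marco, Siglecf and Car4 are low where Fabp5 and Apoe are high.

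Genes that work beside the members were read from lists. Where counts of a list are given, they stand against the background shares given above. Of the transcription factors listed, Cebpa and Bhlhe41, factors of alveolar macrophage identity, were within 1.5-fold in all 4 comparisons. Among 11 genes of lipid handling, the lipoprotein gene Apoe was higher with papain past 1.5-fold in both genotypes, at 43.4, 31.5, 368 and 90.3 CPM, and was higher in WT than in KO after papain. Acsl1 was lower with papain in WT (log2 -0.69), and the cholesterol exporter Abca1 (-1.04) and Pltp (-0.71) were lower with papain in KO. The median log2 ratio of the lipid list was -0.35 with papain in WT and -0.26 in KO, against -0.06 and -0.01 over all genes. For KO over WT it was 0.01 with DPBS and -0.02 with papain, against 0.02 and 0.07.

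Of 11 surface and secreted genes, the lipid and scavenger receptors Trem2 and Msr1 moved. Their log2 ratios were 1.31 and 1.66 with papain in WT and -0.93 and -1.09 in KO over WT after papain. With papain in KO, Msr1 was also past 1.5-fold, at 0.61 (0.23 to 0.99) from 101 and 142 UMIs, and Trem2 was at 0.27 (0.15 to 0.40). Among 7 relatives of the members, Fabp1 was lower with papain in WT, with 563, 519, 324 and 402 CPM, a log2 ratio of -0.80. Of 12 inflammatory and stress genes, 4 were higher and 2 lower with papain in WT, 4 higher with papain in KO, and 4 lower in KO than in WT after papain, among them Inhba, Il1b and Il6. Under DPBS 1 was higher and 3 were lower in KO. Of 6 division genes, Cdk1, Birc5 and Top2a were lower with papain in WT. The median log2 ratio of that list was -0.58 with papain in WT and -0.31 in KO. Of 3 other upkeep ligands only Tgfb1 reached the minimum level, and it did not pass 1.5-fold.

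The genes whose pattern was most like that of the 10 across classes were led by Lpl. Over 46 points of class and library, the Pearson correlation with the members' mean was 0.917 for this gene, the lipoprotein lipase, 0.911 for Adipor2, an adiponectin receptor, 0.910 for both Gm41307 and Pla2g15, a lysosomal phospholipase, and 0.905 for Hebp1. Rab1a, Olr1, Abcg1 and Clmn followed at 0.894 to 0.904. The points share libraries and depth, and these values describe the pattern only. Each member set against the other 9 ranged from 0.867 for Car4 to 0.523 for Csf2ra.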

How the data were processed

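Libraries were sequenced with 10x 3′ v3 chemistry. The deposited matrices hold raw UMI counts per gene and cell barcode, made by the authors with Cell Ranger (3.1.0 in the file headers) on mm10, per the submitters' processing notes. The study's methods describe the filter for other libraries of the same kind, and it was used here: more than 200 genes and under 15% mitochondrial UMIs. Doublets were called with scrublet in scanpy 1.11.5 and removed by rank at 0.8% per 1000 barcodes, because its own threshold marked only 0.0341% of cells in Papain KO. Cells of the 4 libraries were integrated and clustered with Seurat 5.3.0 (2000 features, 30 dimensions, resolution 0.8), with the members and their relatives left out, and 21 of 27 clusters were named from marker lists. The limits of the naming score, 0.7 for a second class among them, were set after the clusters were seen. Totals were 53854420 to 75675956 UMIs per library and 10879498 to 27360303 in alveolar macrophage-like cells, and the fewest UMIs behind a member there were 1553.

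Counts were summed per class and library. CPM have exact Poisson intervals at 95% and ratios exact conditional binomial ones. Called means past 1.5-fold among genes with a mean of at least 10 CPM over the 4 libraries. Positions are GENCODE M21 on GRCm38, and promoter windows are RefSeq on GRCm38.p6. The ratio step was tested on simulated data. The members, gene lists and comparisons were chosen with earlier results of these data known. Named from each list were at most 4 genes with the largest log2 ratio, and all genes of the GM-CSF list. The alternatives are other cell filters, class definitions, normalisations and depths. Some genes of these lists are not reported here.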

Additional observations from a re-analysis of the deposited data

Results flagged for a closer look

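Fabp4, the fatty acid carrier and PPAR gamma target, differed in opposite directions under the same contrast in alveolar macrophage-like cells. The log2 ratio of KO over WT was 0.33 (0.28 to 0.38) with DPBS and -0.67 (-0.74 to -0.60) with papain. The log2 ratio of papain over DPBS was 0.37 (0.32 to 0.42) in WT and -0.62 (-0.69 to -0.56) in KO. These are the same 4 libraries read along 2 axes, so they are 1 pattern and not 2. The intervals cover counting error only, and with 1 library a group the difference between the contrasts was not tested. Other members also changed sign between contrasts, by a smaller amount on at least 1 side, such as Fabp5 at 0.84 with papain in WT and -0.14 in KO. Fabp4 kept the sign of all 4 ratios under all 14 alternatives of the processing. Among these, the setting without a filter on low genes uses the same CPM and cannot change a ratio.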

How the results depend on the processing

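No paired analysis was possible because each group holds 1 library, and for the same reason no replicate could be left out. Of 40 log2 ratios, 31 kept their sign under all 14 other settings, and none past 1.5-fold reversed. The setting without a filter on low genes uses the same CPM and could not change a ratio. The factors of another normalisation were 0.967 to 1.02, so it could move ratios only slightly. With clusters built without integration, the counts of members past 1.5-fold became 1 for KO over WT with papain, 0 for papain over DPBS in WT and 0 for papain over DPBS in KO, in place of 2, 2 and 1. Without the stress-led cluster they were 1, 1 and 0. Without the cells that lack Ear1 and Krt79, an alternative chosen after seeing the data, they were 1, 0 and 0. Without dividing cells the count for papain over DPBS in WT was 1, since Siglecf did not pass, and with cells thinned to 1000 UMIs the count for papain over DPBS in KO was 0. The cause of these shifts was not tested. For KO over WT with DPBS the count was 0 under all 14 settings. The median share of alveolar macrophage-like cells with a UMI of a member was 32.9% at 1000 UMIs, 50.99% at 2000 UMIs and 88.8% unthinned. Fabp4 in KO over WT with papain ranged from -0.75 to -0.56 over these settings, Fabp5 in the same comparison from -1.01 to -0.45, Fabp5 in papain over DPBS in WT from 0.16 to 0.88, and Siglecf there from -0.79 to -0.26. Depth limits the smaller classes most, since neutrophil-like Siglecf rests on 7 to 37 UMIs a library.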
